A study of Mus musculus with 20 samples.

Results

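Tumour necrosis factor (Tnf), the inflammatory chemokines Cxcl1, Cxcl2, Cxcl10, Ccl3, Ccl4 and Ccl5, and the chemokine receptor Cxcr2 were followed over 20 mouse Clariom S arrays, 2 in each of 10 groups. These 8 genes, of 19505 measured under 1 symbol, were taken by name, and each was represented by 1 probe set. The cultured groups held lineage-depleted marrow cells of female wild-type C57BL/6 mice in erythropoietin medium, without (D1-Control, D2-Control) or with interleukin 6 (IL-6), added at the start to 100 ng/mL (D1-IL6, D2-IL6). The series gives 2 mice as the source of the cultures, and D1 and D2 are not defined further in the labels. The other groups held erythroblasts of C57BL/6 mice aged 1 year and labelled healthy, 2 mice per genotype. DKO mice lacked both mDia1 and miR-146a (double knockout), and DWT mice were wild type for both. Proerythroblasts are stage I, basophilic with polychromatic cells stage II+III, and orthochromatic cells stage IV. The DWT arrays came from 1 male (replicate 1) and 1 female (replicate 2) at each stage, whereas all DKO arrays came from females. How the stages were isolated, and in which cells the deletions act, is not given in the labels.

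TNF is a cytokine that acts through the receptors encoded by Tnfrsf1a and Tnfrsf1b and switches on NF-kB, the transcription factor that also drives many chemokine genes. Cxcl1 and Cxcl2 encode neutrophil attractants that bind Cxcr2, a receptor carried mainly by neutrophils. Cxcl10 is induced by interferons and attracts T cells through Cxcr3, and Ccl3, Ccl4 and Ccl5 are CC chemokines that attract monocytes, T cells and granulocytes. The microRNA miR-146a represses Traf6 and Irak1, which act upstream of NF-kB, and mDia1 is a formin (encoded by Diaph1) that nucleates actin filaments.

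The mature microRNA deleted in the DKO mice is shown with its seed, bases 2 to 8, in capitals. It lies on the minus strand of chr11:43374435-43374456 (GRCm38.p6, sequence from RefSeq).
mmu-miR-146a-5p: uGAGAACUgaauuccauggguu

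For 6 of the 8 genes the RefSeq table held the 250 bases before the annotated start, and Ccl4 and Ccl5 are named only. The windows of 3 genes, spelled here because they hold the NF-kB motif, belong to the CXC ligands on chromosome 5. Their coordinates are chr5:90903649-90903898 (Cxcl2, plus strand), chr5:90890995-90891244 (Cxcl1, plus strand) and chr5:92348890-92349139 (Cxcl10, minus strand) in GRCm38.p6. Capitals mark matches to the 10-base NF-kB consensus on either strand, to the interferon-stimulated response element and to the AP-1 motif TGANTCA.
Cxcl2: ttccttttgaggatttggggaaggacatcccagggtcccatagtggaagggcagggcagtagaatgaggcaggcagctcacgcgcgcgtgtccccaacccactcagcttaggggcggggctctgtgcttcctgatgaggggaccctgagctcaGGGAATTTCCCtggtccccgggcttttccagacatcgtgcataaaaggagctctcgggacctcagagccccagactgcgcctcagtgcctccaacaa
Cxcl1: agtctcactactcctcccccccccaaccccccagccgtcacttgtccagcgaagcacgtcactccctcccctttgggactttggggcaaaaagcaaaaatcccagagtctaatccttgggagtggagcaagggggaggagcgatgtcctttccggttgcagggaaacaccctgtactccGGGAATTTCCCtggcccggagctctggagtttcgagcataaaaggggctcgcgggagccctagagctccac
Cxcl10: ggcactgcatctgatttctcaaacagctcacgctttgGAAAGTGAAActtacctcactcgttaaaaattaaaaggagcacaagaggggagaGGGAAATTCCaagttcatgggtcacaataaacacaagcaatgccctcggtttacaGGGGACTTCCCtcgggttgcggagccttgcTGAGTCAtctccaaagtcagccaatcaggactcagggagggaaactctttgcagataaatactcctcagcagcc

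The NF-kB consensus was found in 3 of the 6 windows, and 7.25% of the 32851 windows of the same length in the mouse table held it. Cxcl1 and Cxcl2 shared the run GGGAATTTCCC, which is matched in overlapping positions. In Cxcl2 it lay from base -97 to base -87 before the start, and in Cxcl1 from base -71 to base -61. The interferon-stimulated response element was in the Cxcl10 window alone among the 6 (2.98% of all windows), and so was AP-1 (6.75%). TATAAA was found in the Tnf window alone (12.4% of all windows), and the PU.1 core GAGGAA in those of Tnf, Ccl3 and Cxcr2 (23.3%). A match is a description of letters and no measure of binding. No protein-coding gene starts between Cxcl1 and Cxcl2 in GRCm38.p6, and none between Ccl3 and Ccl4 on chromosome 11.

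Before the results, a few facts of the arrays bear on them. A signal was counted as near background under the 95th percentile of the 23 background probe sets of its array, a level between 7.25 and 7.74 on the log2 scale. The 2 arrays of a group correlated at 0.97 or more over the named probe sets, except those of DKO-I, where r was 0.90. Diaph1 was between 6.87 and 7.59 and above background in 0 of the 6 DKO arrays, and between 8.97 and 11.49 in the other 14, although whether its probes lie in the deleted part is not known. The stage labels were set against marker genes. The mean of 9 erythroblast genes such as Slc4a1 was 13.28 to 13.42 in DWT-I and 9.72 to 10.20 in DKO-I, where 6 of the 9 were above background in both arrays. The mean of 14 neutrophil genes was 15.51 to 15.79 in DWT-I and 15.15 to 16.48 in DKO-I, all 14 above background, so the stage I arrays went against a label of proerythroblasts alone. The same 14 genes were also all above background in DKO-II+III, at 14.86 to 14.99, beside an erythroblast mean of 12.61 to 13.42. Groups are therefore called by their labels below, which do not settle the cells they held. All comparisons below used limma with adjustment over 19572 probe sets, and an adjusted p under 0.05 passed. With 2 arrays per group, the spread behind a p-value was pooled for each gene over all groups of a fit. It was also drawn toward that of probe sets of similar signal, and it covers these arrays only. In such bulk samples fewer cells of a type and less RNA per cell cannot be told apart.

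Of the 8 genes, 5 were above background in some array, and 3 were in none. Cxcl1 lay between 4.70 and 5.77, Cxcl10 between 4.998 and 6.36 and Ccl5 between 4.32 and 5.69 over the 20 arrays. Their highest signals relative to the background level of the array were -1.84, -1.26 and -1.93 log2 units, respectively. A probe set under this level gives no measure of whether its gene was expressed. Cxcl2 was above it in 7 arrays, Ccl3 in 18 arrays, Ccl4 and Cxcr2 in 11 each and Tnf in 3. The plot of the 8 genes over the 10 groups shows where.

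**Figure D1:**
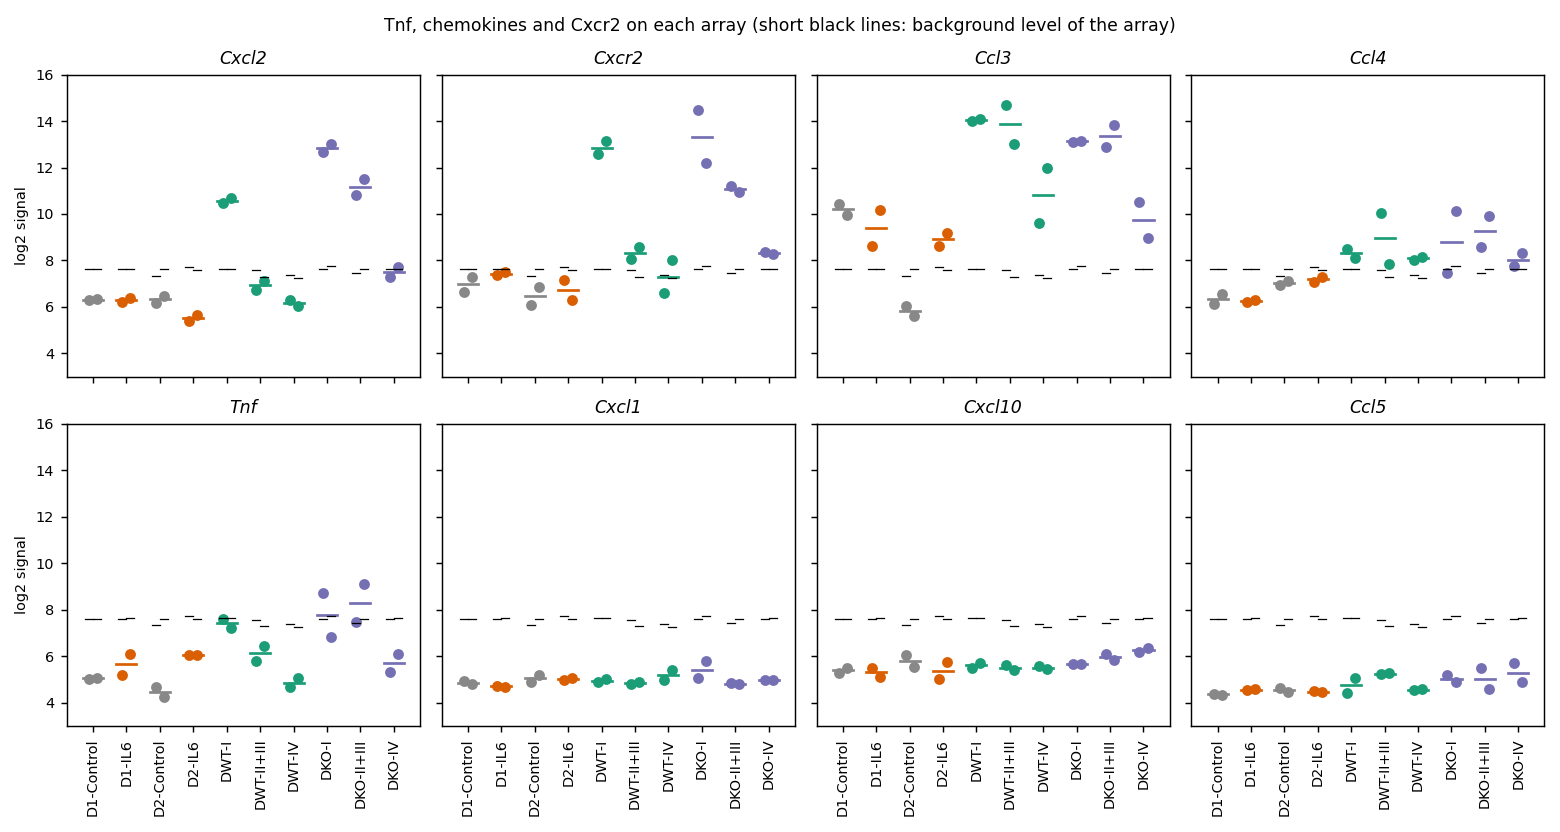
Log2 signal (y axis) of each gene on every array of the 10 groups (x axis); points are arrays, coloured lines the mean of 2 arrays, and short black lines the background level of each array. Cxcl2 and Cxcr2 have their highest group means in DKO-I, Ccl3 is above background in every group except D2-Control, and Cxcl1, Cxcl10 and Ccl5 stay below background throughout.

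Cxcl2, the neutrophil attractant, was higher in DKO than in DWT arrays at stages I and II+III. At stage I its log2 signal was 10.48 and 10.67 in DWT and 12.68 and 12.99 in DKO. The arrays did not overlap, and all 4 were above background. The difference was 2.26 ± 0.40 (SE), a 4.78-fold higher level with an adjusted p of 0.0424 in limma. At stage II+III it was 6.75 and 7.14 in DWT, both near background, and 10.81 and 11.49 in DKO. The difference of 4.21 ± 0.40 had an adjusted p of 0.00335 in limma, and against the background level Cxcl2 was at least 13.1-fold higher in DKO. At stage IV the values were 6.31 and 6.03 in DWT and 7.29 and 7.73 in DKO. They did not overlap, but 1 of these 4 arrays was above background and the difference of 1.34 ± 0.40 did not pass (adjusted p = 0.37 in limma). The tests of whether the genotype difference changed from stage to stage did not pass for Cxcl2: the change was 1.95 ± 0.56 from I to II+III (adjusted p = 0.799 in limma) and -2.86 ± 0.56 from II+III to IV (adjusted p = 0.865). From I to IV it was -0.92 ± 0.56 (adjusted p = 0.529). In those 3 interaction tests 0 of all probe sets passed in limma, while 942, 662 and 1898 had an unadjusted p under 0.05.

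The stage I difference of Cxcl2 stayed between 2.10 and 2.415 when any of its 4 arrays was left out, but its call was lost in most of these fits. The 2 DKO-I arrays were the pair that correlated least, and without replicate 2 the difference was 2.10 with an adjusted p of 0.0897 in limma, while the call held without replicate 1. Without the male or the female DWT-I array it was 2.16 (adjusted p = 0.431) or 2.36 (adjusted p = 0.332), and in a fit of the 4 stage I arrays alone the adjusted p was 0.672. At stage II+III, leaving out the male DWT array gave 4.01 with an adjusted p of 0.0642, and the call held without each of the other arrays.

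Cxcr2, the receptor of Cxcl2, did not pass between genotypes at any stage in the fit of the 12 in vivo arrays. At stage I it was 12.56 and 13.13 in DWT and 14.48 and 12.17 in DKO, so that the arrays overlapped. The difference was 0.48 ± 0.71 (adjusted p = 0.726 in limma), and it turned to -0.67 without DKO-I replicate 1. At stage II+III Cxcr2 was 8.08 and 8.60 in DWT and 11.22 and 10.96 in DKO. These groups did not overlap, and the difference of 2.75 ± 0.71 had an adjusted p of 0.148 in limma, and it passed with all 20 arrays in 1 fit (adjusted p = 0.0272). At stage IV the values were 6.59 and 8.01 in DWT and 8.38 and 8.30 in DKO, a difference of 1.04 that did not pass (adjusted p = 0.784 in limma).

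Ccl3, a ligand of Ccr1, was above background in all 12 in vivo arrays. Its values were 13.995 and 14.09 in DWT-I against 13.08 and 13.16 in DKO-I, a lower level in both DKO arrays that did not pass (-0.92, adjusted p = 0.548 in limma). At stage II+III it was 14.69 and 13.03 in DWT and 12.90 and 13.83 in DKO, with overlapping arrays (-0.50, adjusted p = 0.949). At stage IV it was 9.61 and 11.99 in DWT and 10.50 and 8.99 in DKO, again overlapping. Ccl4, its neighbour on chromosome 11 and another CC chemokine, was above background in 11 of them. It was 8.51 and 8.10 in DWT-I, 7.47 and 10.13 in DKO-I, 10.06 and 7.87 in DWT-II+III, and 8.59 and 9.92 in DKO-II+III. At stage IV it was 8.03 and 8.14 in DWT and 7.74 and 8.31 in DKO. The genotypes overlapped at every stage.

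Tnf was above background in 3 arrays, all DKO. Its values were 7.62 and 7.20 in DWT-I, 8.72 and 6.85 in DKO-I, 5.80 and 6.43 in DWT-II+III, and 7.46 and 9.09 in DKO-II+III. At stage II+III the groups did not overlap, and the difference of 2.16 ± 0.64 did not pass (adjusted p = 0.232 in limma). It ranged from 1.34 to 2.97 when 1 array was left out, and against the background level, under which both DWT arrays lay, it was at least 1.79-fold. That bound rests mostly on DKO-II+III replicate 2 (9.09), since replicate 1 (7.46) lay under the level of DWT-II+III replicate 1 (7.58). At stage IV Tnf was 4.68 and 5.05 in DWT and 5.34 and 6.11 in DKO, all near background. The count of 3 depends on where the background level is set. At the 90th percentile 5 arrays were above it, among them both DWT-I arrays. At the 95th, DWT-I replicate 1 (7.618) lay just under its level of 7.623 and DKO-II+III replicate 1 (7.461) just over its level of 7.446.

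Of the 8 genes, 1 was higher in DKO at stage I (0.0562% of all probe sets passed upward), 1 at stage II+III (0.22%) and 0 at stage IV (0.046% passed in either direction), and none was lower. An unadjusted p under 0.05 in limma was reached by 1, 3 and 2 of the 8 at stages I, II+III and IV, beside 3028, 1816 and 1588 of the 19572 probe sets. Those at stage IV were Cxcl2 and Cxcl10, the latter above background in no array. The median difference of the 8 was 0.42, 0.37 and 0.75 at stages I, II+III and IV, beside medians over all probe sets of 0.15, 0.01 and -0.02. These medians include the 3 genes above background in no array, and the one at stage IV lies between the values of Ccl5 (0.74) and Cxcl10 (0.76), so it describes signal near background. The plot of differences sets these beside those with IL-6.

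**Figure D2:**
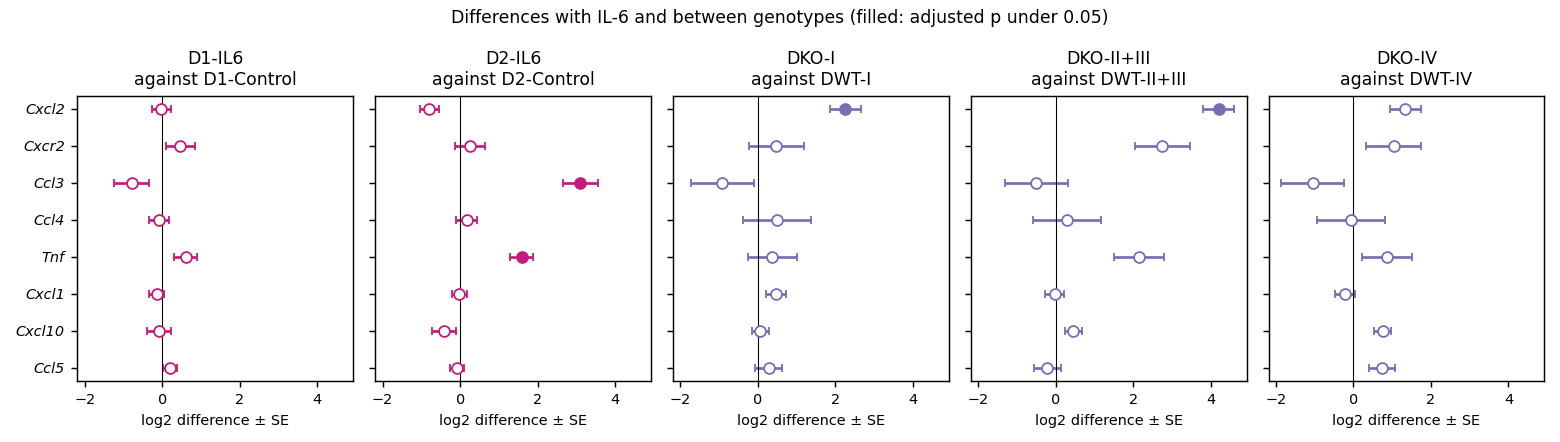
Log2 difference with its SE (x axis) for each of the 8 genes (y axis) in 5 comparisons, IL-6 against control at D1 and D2 and DKO against DWT at stages I, II+III and IV, each of 2 arrays against 2. Filled points have an adjusted p under 0.05 in limma; these are Ccl3 and Tnf with IL-6 at D2, and Cxcl2 at stages I and II+III.

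Marker genes of other cell types moved with some of these differences. At stage I the neutrophil means overlapped between genotypes, while the erythroblast means given above and the monocyte and macrophage means given below did not. At stage II+III the mean of the 14 neutrophil genes was 10.67 to 12.40 in DWT, with 11 of 14 above background in both arrays and Mmp9 and Stfa2l1 below it, and 14.86 to 14.99 in DKO, with all 14 above. At stage IV it was 7.52 to 9.39 in DWT (6 of 14 above background) and 11.27 to 11.82 in DKO (10 of 14, with Padi4 and Cd177 below). The mean of 17 monocyte and macrophage genes was 11.80 to 11.995 in DWT-I and 12.07 to 13.13 in DKO-I, and 11.11 to 11.67 in DWT-II+III and 12.09 to 12.78 in DKO-II+III. The mean of the 9 erythroblast genes was 14.41 to 15.11 in DWT-II+III, above that in DKO-II+III given earlier. The mean of 7 mast cell and basophil genes was 12.57 to 13.14 in DWT-II+III and 9.23 to 11.46 in DKO-II+III. The part of these cells in the differences of Cxcl2, Cxcr2 and Tnf was not tested.

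**Figure D3:**
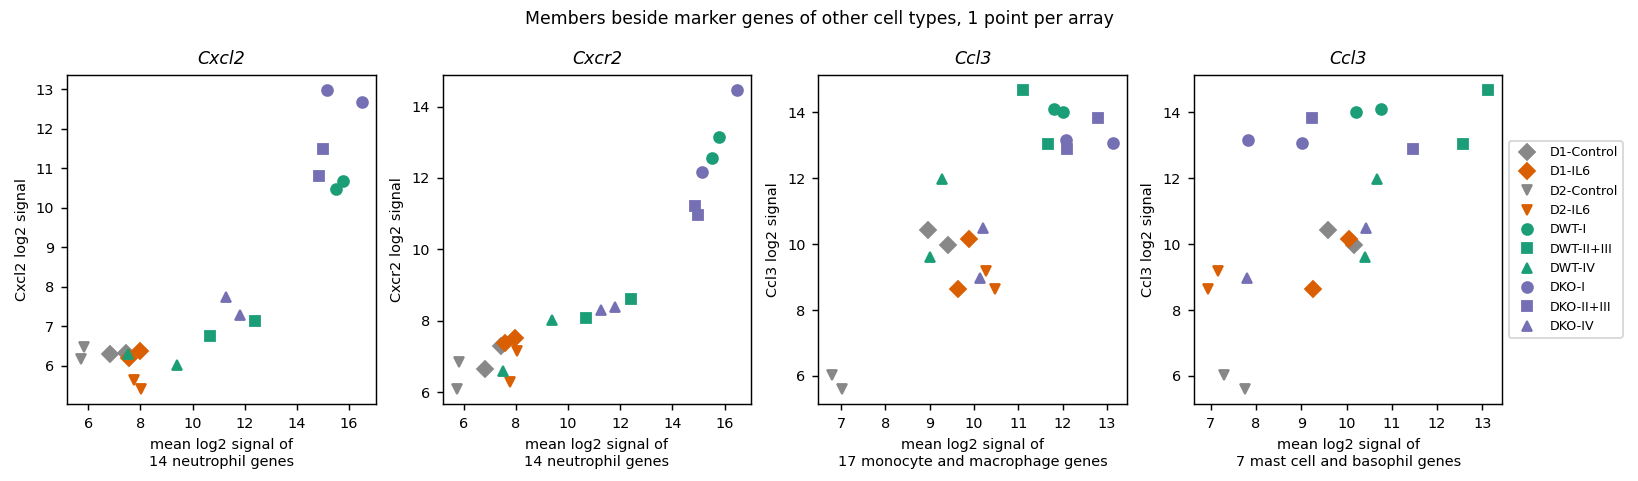
Log2 signal of Cxcl2, Cxcr2 and Ccl3 (y axes) against the mean log2 signal of marker genes (x axes: 14 neutrophil, 17 monocyte and macrophage, or 7 mast cell and basophil genes), 1 point per array, coloured by group. Cxcr2 is highest where the neutrophil mean is highest. At stage I the neutrophil means are 15.15 to 16.48 in DKO and 15.51 to 15.79 in DWT arrays, and their part in Cxcl2 was not tested.

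Between stages, Cxcl2 and Cxcr2 were lower at II+III than at I in the DWT arrays. Cxcl2 went from a mean of 10.58 to 6.94, near background, a level at least 8.83-fold lower (adjusted p = 0.00617 in limma). Cxcr2 went from 12.85 to 8.34, a difference of -4.51 ± 0.71 (adjusted p = 0.034). These were 2 of the 8 genes, beside 0.22% of all probe sets that passed downward, and both calls were lost when any of the 4 arrays was left out (adjusted p 0.0501 to 0.179 for Cxcl2 and 0.138 to 0.465 for Cxcr2). The neutrophil mean was lower over the same step, 15.51 to 15.79 at I and 10.67 to 12.40 at II+III, and its part was not tested. In DKO, 0 of the 8 passed between I and II+III (0.327% of probe sets in either direction), 3 having an unadjusted p under 0.05 in limma. Cxcl2 differed there by -1.68 (adjusted p = 0.164) and Cxcr2 by -2.23 (adjusted p = 0.355). Cxcl2 passed without DKO-I replicate 1 (-1.84, adjusted p = 0.0134) and with all 20 arrays in 1 fit (0.0113). Cxcr2 was -1.08 without DKO-I replicate 1, and -3.38 without DKO-I replicate 2, where it passed (0.0347). Whether the step differed between genotypes is the interaction given above, which did not pass for Cxcl2.

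From II+III to IV, 4 of the 8 were lower in DKO, beside 3.66% of all probe sets. Cxcl2 went from 11.15 to 7.51, a difference of -3.64 ± 0.40 (adjusted p = 0.00243 in limma), and passed in all 11 alternatives. Ccl3 differed by -3.62 ± 0.81 (adjusted p = 0.0239) and Cxcr2 by -2.75 ± 0.71 (adjusted p = 0.041). The Cxcr2 call was lost with quantile normalization (adjusted p = 0.0558 in limma) and with centring on array medians (0.0538). Tnf, near background at stage IV, was at least 1.58-fold lower there (adjusted p = 0.0383 in limma). That bound rests on DKO-II+III replicate 2 (9.09), since replicate 1 (7.46) lay under the background levels of the DKO-IV arrays. Leaving out any of the 4 arrays ended the calls of Ccl3 (adjusted p 0.0526 to 0.185) and Cxcr2 (0.127 to 0.191). The Tnf call ended without DKO-II+III replicate 2 (0.217), DKO-IV replicate 1 (0.198) or DKO-IV replicate 2 (0.117). In DWT, 0 of the 8 passed over this step (5.16% of probe sets in either direction; 1 of the 8 at an unadjusted p under 0.05 in limma). Ccl3 differed by -3.06 ± 0.81 with an adjusted p of 0.0574 in limma, and by the same amount with an adjusted p of 0.0161 when the mouse was a block. It ranged from -1.87 without DWT-IV replicate 1 (adjusted p = 0.356) to -4.25 without DWT-IV replicate 2 (adjusted p = 0.0386). With that block 2 of the 8 passed, the other being Tnf, which was near background in all 4 arrays. The neutrophil mean was lower at IV than at II+III in both genotypes (values above). The monocyte and macrophage mean was 11.11 to 11.67 at II+III and 8.99 to 9.26 at IV in DWT, and 12.09 to 12.78 and 10.13 to 10.20 in DKO. The mast cell and basophil mean was 12.57 to 13.14 and 10.41 to 10.67 in DWT, and 9.23 to 11.46 and 7.79 to 10.43 in DKO. The part of those cells was not tested.

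In culture Ccl3 differed with IL-6 at D2 and between D1 and D2 without it. It was 10.42 and 9.97 in D1-Control, 8.64 and 10.15 in D1-IL6, 6.02 and 5.59 in D2-Control, and 8.64 and 9.18 in D2-IL6. D2-Control alone was near background, and both of its arrays lay under those of the other 3 groups. With IL-6 at D2, Ccl3 was at least 2.68-fold higher against the background level (difference 3.10 ± 0.46, adjusted p = 0.00268 in limma). Without IL-6 it was at least 6.54-fold lower at D2 than at D1 (difference -4.39 ± 0.46, adjusted p = 2.54e-05). With IL-6 at D1 the arrays overlapped, and the difference of -0.80 had an adjusted p of 1.00. The change of the IL-6 difference from D1 to D2 was itself tested and was 3.90 ± 0.64 (adjusted p = 0.014 in limma), beside 1.17% of all probe sets passing upward.

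These Ccl3 calls held to different degrees. The fall from D1 to D2 in control cultures passed in all 11 alternatives. The IL-6 difference at D2 passed in 10 of 11, and its adjusted p was 0.0571 with all 20 arrays in 1 fit. The D1 to D2 change of the IL-6 difference lost its call there (0.275) and without D1-Control replicate 1 (0.0659), D1-Control replicate 2 (0.0506), D2-Control replicate 2 (0.0618) or D2-IL6 replicate 2 (0.0548).

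Tnf also passed with IL-6 at D2, but its arrays were near background throughout, at 4.69 and 4.24 in D2-Control and 6.07 and 6.04 in D2-IL6, so no fold is given (adjusted p = 0.0128 in limma). That call ended with all 20 arrays in 1 fit (0.33) and without D2-Control replicate 2 (0.0878), D2-IL6 replicate 1 (0.0603) or D2-IL6 replicate 2 (0.056). Ccl4 (6.14 to 7.31), Cxcl2 (5.40 to 6.48) and Cxcr2 (6.08 to 7.504) were near background in all 8 cultured arrays. With the level at the 90th percentile some of these arrays lay above it, among them both D2-IL6 arrays for Ccl4 and both D1-IL6 arrays for Cxcr2.

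With IL-6, 0 of the 8 passed at D1 (0.0511% of probe sets in either direction, 0 of the 8 at an unadjusted p under 0.05 in limma) and 2 were higher at D2 (2.92% upward). From D1 to D2, 1 was lower without IL-6 (23.5% downward). With IL-6, 1 was higher and 1 lower (13% and 20.2%), Ccl4 (adjusted p = 0.0195) and Cxcl2 (0.0347), both near background in all 4 arrays. From D1 to D2, 1 call among 8 genes in a direction is thus near the share over all probe sets. The mean of the 17 monocyte and macrophage genes was 6.80 to 7.02 in D2-Control, with 4 of 17 above background, and 10.28 to 10.48 in D2-IL6, with 13 of 17 above it and C1qa, C1qb and Vcam1 below. It was 8.96 to 9.40 in D1-Control and 9.64 to 9.88 in D1-IL6. The neutrophil mean was 5.72 to 5.83 in D2-Control and 7.75 to 8.03 in D2-IL6, and the mast cell and basophil mean 7.29 to 7.76 and 6.94 to 7.16. The part of these cells in the Ccl3 differences was not tested.

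The order of the group means was described for each gene above background. For Cxcl2 it ran DKO-I, DKO-II+III, DWT-I, DKO-IV, DWT-II+III, with no overlap between neighbours in this run, and then the other groups near background. Cxcr2 had its highest means in DKO-I (13.32 ± 1.63, SD, n = 2) and DWT-I (12.85 ± 0.40), which overlapped, followed by DKO-II+III (11.09 ± 0.18). For Ccl3 the means were 14.04 ± 0.06 in DWT-I, 13.86 ± 1.17 in DWT-II+III, 13.36 ± 0.66 in DKO-II+III and 13.12 ± 0.06 in DKO-I. Each of these overlapped with the next, and none reached down to DWT-IV (10.80 ± 1.68). Whether the cultured and in vivo arrays were normalized together is not stated, so levels are set across those 2 sets as deposited.

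Genes with the pattern most like each member over the 20 arrays were found by Pearson's r among 9719 genes, as a description in which the arrays share groups and cell makeup. The 3 nearest Cxcl2 were Olfml2b (0.98), Orm1 (0.978) and Slfn4 (0.978), and those nearest Cxcr2 were Map3k9 (0.988), Mmp9 (0.978) and Ppp1r3b (0.978). Mmp9, a gelatinase of neutrophil granules, is among the 14 neutrophil genes. For Ccl3 they were Fn1 (0.944), H2-M3 (0.944) and Rgs2 (0.931), for Ccl4 Abcg3 (0.915), Sdc3 (0.9) and Tmem26 (0.87), and for Tnf Tlr4 (0.961), Gm15448 (0.954) and Aldh3b1 (0.949). Tlr4 encodes the receptor for bacterial lipopolysaccharide.

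The other chemokine ligands (31 measured) and receptors (21 measured of 22), the TNF receptors and their signalling proteins (24 of 26) and the factors of cytokine mRNA decay (12) were counted in the same fits. Of these, 13 ligands and 10 receptors were above background in both arrays of some group. With IL-6 at D2, 1 ligand passed upward, Ccl9, a Ccr1 ligand in mice (3.35 ± 0.54, adjusted p = 0.00492 in limma, near background in D2-Control). Of the receptors, 2 were higher and 1 was lower. They were Ccr2, the monocyte receptor for Ccl2 (4.65, adjusted p = 1.1e-05), Ccr1 (2.31, 0.0031) and the fractalkine receptor Cx3cr1 (-1.27, 0.0256), the last near background in D2-IL6, with a bound of -0.59. Over all probe sets 2.92% passed upward and 0.393% downward. Tnfrsf1a, the main TNF receptor (3.10, adjusted p = 0.00585), and the apoptotic protease Casp8 (0.99, 0.0394) passed upward, and 0 of the 12 decay factors passed. The calls of Ccl9, Ccr1, Ccr2 and Tnfrsf1a held without each array in turn, whereas that of Cx3cr1 was lost without any of the 4 arrays and that of Casp8 without D2-Control replicate 2 or D2-IL6 replicate 1. With all 20 arrays in 1 fit Ccl9 had an adjusted p of 0.151 in limma, Casp8 0.414 and Cx3cr1 0.0576. With only the compared groups Casp8 had 0.207 and Cx3cr1 0.149. Casp8 also missed the threshold with quantile normalization (adjusted p = 0.0777 in limma) and without an intensity trend (0.0782). Casp8 and Cx3cr1 each passed in 5 of 11 alternatives. At D1, 0 genes of the 4 lists passed with IL-6 in limma, beside 0.0511% of all probe sets in either direction. In the D1 to D2 change of the IL-6 difference 1 receptor passed, Ccr2 (3.81 ± 0.44, adjusted p = 0.00152 in limma). Over all probe sets 1.17% passed upward there. With all 20 arrays in 1 fit that change of Ccr2 had an adjusted p of 0.469 in limma.

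Between genotypes 1 gene of the 4 lists passed, Ppbp, a platelet chemokine, which was lower in DKO-I (-3.12, adjusted p = 0.0044 in limma, bound -1.57 against the background level), beside 0.388% of all probe sets passing downward. At stages II+III and IV 0 passed in limma, beside 121 and 9 of the 19572 probe sets in either direction. From I to II+III in DWT, 1 gene of the 4 lists passed, the receptor Ccr1 (-2.72, adjusted p = 0.0342 in limma). Over all probe sets 0.22% passed downward there. In DKO 0 passed over this step, beside 0.327% of all probe sets in either direction. Counts of 0 or 1 are thus no result about these lists. Without the male or the female DWT-I array Ppbp had an adjusted p of 0.0871 or 0.0674, and the Ccr1 call was lost without any of its 4 arrays.

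From II+III to IV in DWT, 1 ligand, 2 receptors, 2 TNF receptor and signalling genes and 1 decay factor were lower, and 0 were higher, beside 3.57% of all probe sets that were lower. They were the ligand Ccl6 (-2.33), Ccr1 (-2.26, bound -1.56), Cx3cr1 (-1.60), Tnfrsf1a (-4.26), Casp8 (-1.97) and Zfp36 (-2.07, bound -1.71), which encodes tristetraprolin, a protein that speeds decay of Tnf mRNA. Their adjusted p-values in limma were between 0.0133 and 0.0436. A bound is the difference against the background level, given for Ccr1 and Zfp36 because both DWT-IV arrays lay under it. In DKO the same step had 1 ligand higher and 1 lower, 2 receptors higher and 1 lower, 2 TNF receptor and signalling genes higher and 4 lower, and 1 decay factor lower, beside 4.11% of all probe sets higher and 3.66% lower. Among them Ccl6 (-2.77), Ccr1 (-3.00), Tnfrsf1a (-2.86), Zfp36 (-1.71) and the caspase 8 regulator Cflar (-2.97) were lower, and Ppbp (1.45), Ccrl2 (2.53, bound 1.95), the erythroid chemokine scavenger Ackr1 (1.64) and Tab3 (2.50) were higher. Each of the 6 calls in DWT and the 9 named in DKO was lost when some array was left out.

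From D1 to D2 without IL-6, 7 ligands were higher and 2 lower, 4 receptors higher and 3 lower, 4 TNF receptor and signalling genes higher and 9 lower, and 3 decay factors higher and 6 lower. Over all probe sets 19.7% passed upward and 23.5% downward, so that 7 of 31 ligands and 4 of 21 receptors higher are near the general share. The largest rise among the receptors was that of Ccrl2, which binds chemerin, with a log2 difference of 5.78 (bound 5.04, near background in D1-Control). The largest fall was that of Ccr2 (-3.39). With IL-6 the counts were 3 and 2, 4 and 2, 6 and 5, and 2 and 5, in the same order, beside 13% and 20.2% of all probe sets. All 3 ligands higher with IL-6 (Ccl7, Cxcl13 and Cxcl12) were near background in every array compared. So were the ligands Ccl12, Cxcl13 and Cxcl11 and the receptor Ackr2 among those higher without it. These calls describe signal near background, also where they held without each array. Of the 18 list genes with the largest differences without IL-6, 14 kept their call without each array, and of the 17 with IL-6, 12 did.

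**Figure D4:**
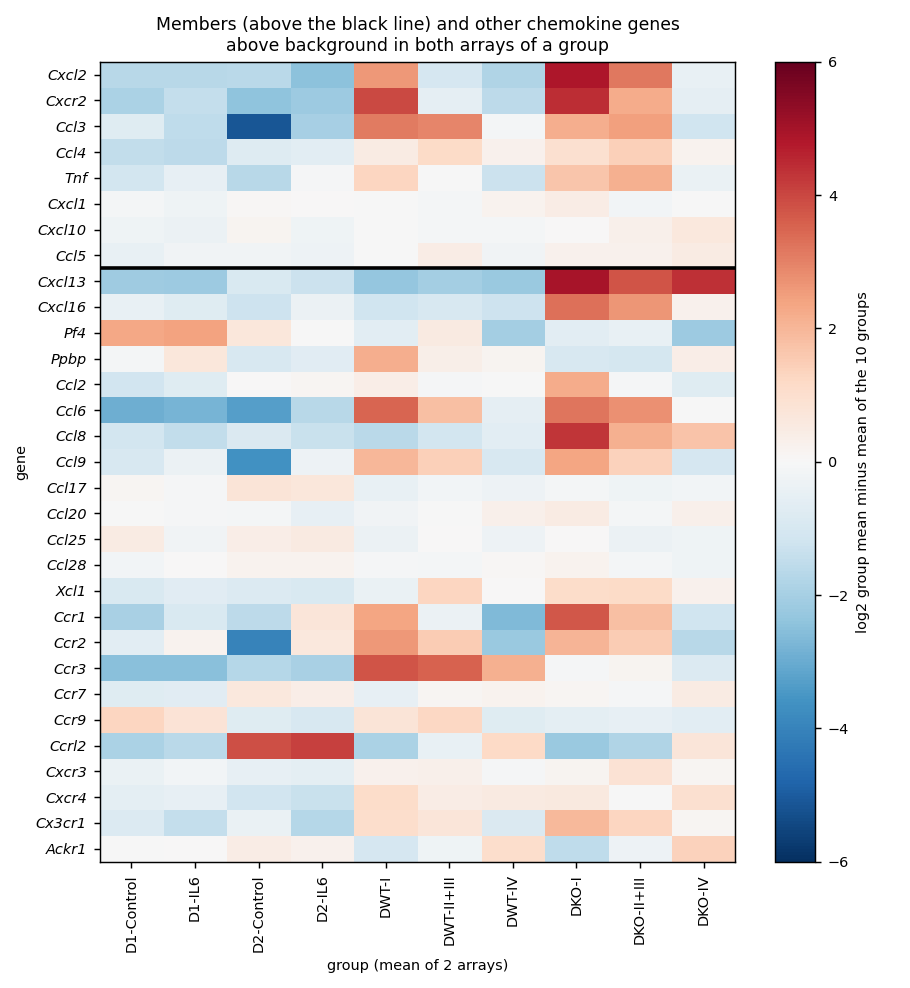
Group mean log2 signal of 2 arrays minus the mean of the 10 groups (colour) for the 8 genes (above the black line) and for the other 13 chemokine ligands and 10 receptors above background in both arrays of some group (rows), by group (columns). Rows are each set on their own mean, so levels are compared along a row; Cxcl2, Cxcr2 and Ccl3 hold most of the contrast among the 8.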

How the data were processed

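RNA was amplified from 700 pg with a Pico kit and hybridised to Clariom S arrays, per the labels' protocols. The authors deposited log2 signals from RMA in Affymetrix Expression Console, per the submitters' processing notes. Versions, and whether all 20 arrays were normalized together, are not given in the sources used here. Of 22206 transcript probe sets, 19572 carried 1 gene symbol in the platform annotation, and the 2634 others entered 1 alternative. The values were used as deposited, between 2.88 and 19.28.

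Tests between groups used limma 3.58.1 under R 4.3.3, with lmFit and a trended eBayes, 2-sided, with Benjamini-Hochberg adjustment over the 19572 probe sets. There was 1 fit for the 8 cultured arrays (residual degrees of freedom 4, prior 6.41) and another for the 12 in vivo arrays (6 and 4.52). Each fit shared 1 estimate of the spread per probe set over its groups. The cultured arrays entered as independent, although the series gives 2 mice as their source. No mouse block was fitted for them, so their p-values leave out any likeness between arrays of the same mouse. The fit was tested on simulated data. Where a gene was above background in both arrays of 1 group and in neither of the other, "at least" gives the fold against the higher of the background level and its own signal. The number of arrays limits the precision.

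The members and the gene lists were chosen with earlier results of these data known. The text names all 8 members, Diaph1, the 3 genes most correlated with each member above background, and from each list up to 3 genes that passed with the largest differences (up to 6 for ligands and receptors). From D1 to D2 only part of these list genes are named. They are the receptors with the largest rise and fall without IL-6, and those near background in every array compared. At each stage the DWT arrays came from the same male and female mice. Deviations of the 2 mice from the group means correlated between stages at 0.153 (I and II+III), 0.061 (I and IV) and 0.197 (II+III and IV) over 8809 probe sets, so the mouse was a block in 1 alternative. Other alternatives were a fit of all 20 arrays, a fit of the compared groups only, centring on array medians, quantile normalization, no intensity trend, a filter on dim probe sets and leaving out each array. Promoter and microRNA sequences were read from RefSeq tables (GRCm38.p6).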

Additional observations from a re-analysis of the deposited data

Results flagged for a closer look

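As with Ccr2 above, the IL-6 difference of Ccl3 changed between the culture points. It was 3.10 at D2 and -0.80 at D1, and the test of the change itself gave 3.90 ± 0.64 (adjusted p = 0.014 in limma, 1.17% of all probe sets passing upward). At D2 both IL-6 arrays lay above both control arrays, while at D1 the groups overlapped. The call ended with all 20 arrays in 1 fit (adjusted p = 0.275) and without D1-Control replicate 1, D1-Control replicate 2, D2-Control replicate 2 or D2-IL6 replicate 2 (0.0506 to 0.0659).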

How the results depend on the processing

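The larger changes in the counts of the 8 genes that passed were as follows. With all 20 arrays in 1 fit, 0 rather than 2 passed with IL-6 at D2, 0 rather than 2 between D2-IL6 and D1-IL6, 0 rather than 1 in the D1 to D2 change of the IL-6 difference, 2 rather than 1 in DKO-II+III against DWT-II+III, 1 rather than 0 in DWT-IV against DWT-II+III, 1 rather than 0 in DKO-II+III against DKO-I, and 1 rather than 0 in the change of the DKO difference from II+III to IV. With the filter on dim probe sets, 1 passed with IL-6 at D2, 0 between D2-IL6 and D1-IL6, and 1 in DWT-IV against DWT-II+III. With only the compared groups, 0 passed in DKO-I against DWT-I and 2 in DWT-IV against DWT-II+III. Centring left 2 rather than 4 in DKO-IV against DKO-II+III, where quantile normalization also ended the Cxcr2 call. Quantile normalization or no intensity trend gave 2 rather than 1 in D2-Control against D1-Control. The mouse as a replicate block gave 2 rather than 0 in DWT-IV against DWT-II+III and, in the other DWT step it was run for (DWT-II+III against DWT-I), changed no call among the 8 genes. It could not be run for the DKO arrays, whose mice the labels do not give, and was not run for the cultured arrays. Leaving out each array gave 1 to 2 with IL-6 at D2, 0 to 1 between D2-IL6 and D1-IL6, 0 to 1 in the change of the IL-6 difference, 0 to 2 at DKO-I, 0 to 1 at DKO-II+III, 0 to 0 in DWT-II+III against DWT-I, 0 to 1 in DWT-IV against DWT-II+III, 0 to 2 in DKO-II+III against DKO-I, 1 to 2 in DKO-IV against DKO-II+III, and 0 to 2 and 0 to 1 in the changes of the DKO difference from I to II+III and from I to IV. The Cxcr2 difference at stage I reversed to -0.67 without DKO-I replicate 1 and was 1.63 without replicate 2. A background level at the 90th percentile put Tnf above it in 5 arrays rather than 3, Cxcl2 in 9 rather than 7, and Ccl4 and Cxcr2 in 15 each rather than 11. The cause was not tested. Signal near background limits Tnf in most arrays and Cxcl1, Cxcl10 and Ccl5 in all.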

Other observations

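Among the chemokine genes outside the 8, a few stood apart in the DKO arrays without passing, and they were chosen after their values were seen. Cxcl13, the B cell attractant, was 7.89 and 17.95 in DKO-I, 7.34 and 16.20 in DKO-II+III and 8.73 and 15.95 in DKO-IV, and between 5.50 and 6.41 in the 6 DWT arrays. It was thus high in replicate 2 at each stage, although the labels do not tie replicate numbers of DKO arrays to mice, and its differences of 5.81 to 7.25 did not pass (adjusted p 0.326 to 0.68 in limma).

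Cxcl16, a chemokine made as a membrane protein, was 11.27 and 13.54 in DKO-I and 9.91 and 13.63 in DKO-II+III, against 7.84 and 7.98 in DWT-I and 8.48 and 7.78 in DWT-II+III. The groups did not overlap at either stage, and the differences of 4.50 and 3.64 missed the threshold, with adjusted p-values of 0.109 and 0.195 in limma. At stage IV Cxcl16 was 9.42 and 9.35 in DKO and 7.90 and 7.85 in DWT, also without overlap (1.51, adjusted p = 0.782 in limma). Ccr3, the eotaxin receptor of eosinophils, was lower in every DKO array than in every DWT array of its stage, with log2 differences of -3.86, -3.35 and -2.97 at I, II+III and IV, and did not pass (adjusted p 0.0914 to 0.335). The mean of 5 eosinophil genes was 13.74 to 13.99 in DWT-I and 6.58 to 11.69 in DKO-I. The genotypes overlapped at II+III (12.78 to 12.88 and 9.07 to 13.36) and at IV (8.49 to 8.72 and 6.94 to 9.18). The mean of 7 mast cell and basophil genes was 10.21 to 10.77 in DWT-I and 7.82 to 9.03 in DKO-I. At II+III it was 12.57 to 13.14 in DWT and 9.23 to 11.46 in DKO. The genotypes overlapped in it at IV (10.41 to 10.67 and 7.79 to 10.43). The part of all these cells in the Ccr3 differences was not tested.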
